A study of Drosophila melanogaster with 3 samples.

Results

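Odorant-binding proteins are small secreted proteins that carry water-insoluble ligands through extracellular fluid. In the fly antenna, support cells release them into the fluid around the dendrites of olfactory neurons, and others of the family are made in taste bristles, in glia, in fat body or in the male reproductive tract. Most have a fold held together by disulfide bonds between conserved cysteines, and the Minus-C and Plus-C classes have lost or gained some of these cysteines.

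The 51 genes described here were chosen by name from the 15682 genes listed in each library. They are 45 rows whose symbol begins with Obp and a digit, 5 rows under the older name Pbprp, and lush. All 51 matched a RefSeq gene of the Release 6 plus ISO1 MT fly assembly, which has 52 such genes. The remaining gene, Obp83b, stands in the files as Os-E, a name the rule does not take, and it is given beside the members where it bears on them. Several symbols have changed hands over time (RefSeq lists Obp99b, for example, as a former name of Obp99c), so every gene is named as the files name it, with the RefSeq symbol in brackets where the names differ.

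RNA came from skeletal muscle of male Drosophila melanogaster, 10 days old, with RNA interference against Ptx1, the fly Pitx gene, driven by Mhc-Gal4, a driver under a myosin heavy chain promoter. There was 1 group of 3 libraries, all carrying this genotype, and they are called libraries 1, 2 and 3 after their labels. Control libraries were not analysed here, so no value below shows an effect of the RNA interference. The labels do not say whether the libraries came from separate pools of flies, so spreads and p-values measure differences between these samples that may be technical.

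The libraries held 35988267, 50794384 and 52675322 gene counts, and values are given as CPM, the count of a gene scaled to a total of 1000000 gene counts per library, with means ± SD over n = 3. The targeted gene, Ptx1, stood at 15.7, 12.3 and 12.1 CPM in libraries 1, 2 and 3. All 15 muscle markers reached 1 CPM in each library, led by Mhc at 4492 ± 365 CPM. Markers of other tissues were present as well. The 13 photoreceptor genes summed to 302, 2486 and 1642 CPM, and edgeR's goodness-of-fit test called all 13 as differing between libraries, each highest in library 2. The 12 neuron and glia genes summed to 1566, 2156 and 1944 CPM with none called, and the 8 fat body genes to 8795, 9329 and 9339 CPM with none called. The 10 gut genes summed to 13552, 11467 and 11685 CPM, with 7 of the 9 detected highest in library 1. The gut gene called was LysX, a lysozyme gene, at 5.67, 0.472 and 2.89 CPM (edgeR goodness-of-fit test, adjusted p = 6.6e-10). Of 10 accessory gland and testis genes, 1 was detected, and their sums were 2.50, 1.95 and 2.05 CPM.

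As a family, the odorant-binding protein genes held 0.394 ± 0.0300% of all gene counts. The share was 0.426% in library 1, with an exact Clopper-Pearson 95% interval of 0.424 to 0.428%, 0.367% in library 2, with an interval of 0.365 to 0.369%, and 0.389% in library 3, with an interval of 0.387 to 0.391%. These intervals cover counting error only. They do not overlap, and library 1 had the highest share and library 2 the lowest. The difference lay in the 3 members with the most counts, Obp99c, Obp56d and Obp99b, which together held 66.7 ± 2.95% of the family's counts. The 48 other members held 0.129, 0.132 and 0.132% of gene counts in libraries 1, 2 and 3, or 0.131 ± 0.00191%.

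**Figure D1:**
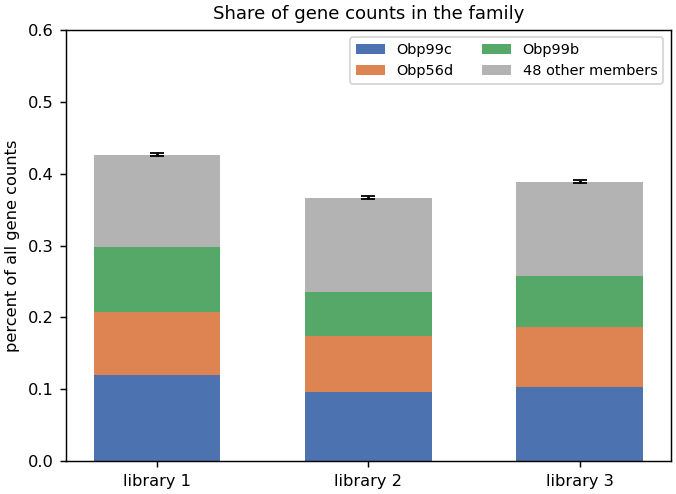
Percent of all gene counts (vertical axis, starting at 0) held by the odorant-binding protein genes in each library; colours show Obp99c, Obp56d, Obp99b and the 48 other members, and error bars are exact 95% intervals of the family's share for counting error only. The whole bar is 0.426, 0.367 and 0.389% in libraries 1, 2 and 3, while the grey part stays between 0.129 and 0.132%.

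Counts covered a wide range. Of the 51 members, 22, or 43.1%, reached 1 CPM in each of the 3 libraries and are called detected, beside 61.1% of all genes. A further 20 members were counted but missed that level in at least 1 library, and 9, or 17.6%, had no count in any library, beside 11.5% of all genes. The 8 members with a mean of 100 CPM or more held 92.4% of the family's counts, and the 6 with means from 10 to 100 CPM held 6.71%. The 9 with means from 1 to 10 CPM held 0.764%, and the 19 counted members under 1 CPM held 0.132%. Transcript lengths of the annotation behind the counts were not available, so CPM values are not divided by length and are shares of counts; they do not rank the genes by transcript number.

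**Figure D2:**
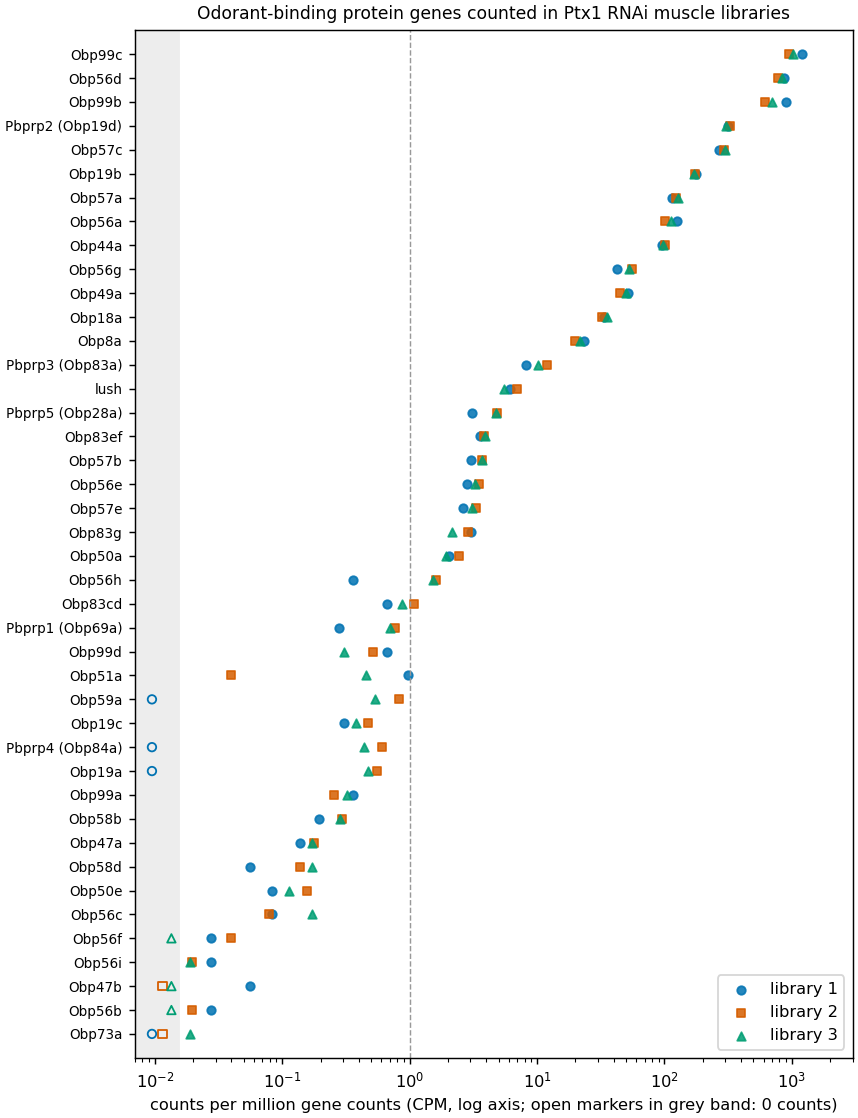
CPM (log axis) of the 42 members with at least 1 count, in order of mean CPM, not divided by transcript length; each point is a library, open markers in the grey band are counts of 0, and the dashed line marks 1 CPM. The libraries lie close together for most members above 1 CPM, whereas Obp56h lies lower in library 1, Obp51a lower in library 2, and Obp59a, Pbprp4 and Obp19a are at 0 in library 1.

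The Minus-C class held the largest counts, with its 6 genes summing to 2229, 1689 and 1851 CPM in libraries 1, 2 and 3. Obp99c stood at 1204, 954 and 1027 CPM in the same order, a mean of 1062 ± 129 CPM. Obp99b, which RefSeq also lists as tsx, a gene known for male-biased expression in the fat body of the head, stood at 904, 613 and 705 CPM, a mean of 740 ± 149 CPM. Library 1 was the high one and library 2 the low one for both, with highest-to-lowest ratios of 1.26 and 1.48, and neither was called by the goodness-of-fit test. The gut markers had the same order of libraries in their sum, although 2 of them, Amy-p and Amy-d, were highest in library 2. The sum of the accessory gland and testis genes had this order too. The fat body sum did not, being lowest in library 1 at 8795, 9329 and 9339 CPM, of which Rfabg (apolpp) held 5231, 5970 and 5951 CPM. Of the 7 detected fat body genes, 2 were highest in library 1, 4 in library 2 and 1 in library 3. Those highest in library 1 had the order of Obp99c and Obp99b. They were Lsd-1, at 693, 538 and 608 CPM, and CG3523 (FASN1), at 2244, 2064 and 2071 CPM. The part of these tissues in the differences of Obp99c and Obp99b was not tested. Obp44a, known as a fatty acid carrier made by glia of the brain, was nearly level at 95.9, 102 and 97.4 CPM. Obp8a, a seminal fluid protein gene, stood at 23.5, 19.9 and 21.7 CPM. The other Minus-C members were sparse, with Obp99d at 0.494 ± 0.182 CPM and Obp99a at 0.313 ± 0.0533 CPM. For comparison, the highest gene of the accessory gland and testis list was twe, a testis gene, at 1.48 ± 0.114 CPM, and the part of reproductive tract RNA in the Obp8a counts was not tested.

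Some members are described from taste organs, a grouping made from background knowledge after the values were seen and not from a fixed list. Obp56d, found in both olfactory and taste sensilla, stood at 869, 782 and 843 CPM, a mean of 831 ± 44.8 CPM. Pbprp2 (Obp19d), likewise found in both kinds of sensilla, stood at 314, 326 and 304 CPM, a mean of 314 ± 11.0 CPM. Obp19b, which serves the taste of amino acids in the mouthparts, stood at 177, 175 and 171 CPM, a mean of 174 ± 3.28 CPM. Its coefficient of variation over the libraries, 1.88%, was the lowest among the 22 detected members, whose median was 10.5% beside 7.86% for all 9579 detected genes. Obp49a, a Plus-C gene needed for the suppression of sweet taste by bitter compounds, stood at 51.6, 45.0 and 50.3 CPM. Obp57e, known from taste bristles of the legs and from the choice of egg-laying sites, stood at 2.61, 3.33 and 3.11 CPM, whereas its relative Obp57d had no count in any library. None of these genes was called.

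The cluster of genes at cytological region 57 also held Obp57c, at 270, 291 and 298 CPM, and Obp57a, at 115, 123 and 129 CPM. Obp57b, which lies between them in gene order, stood at 3.06, 3.68 and 3.68 CPM. The libraries were thus in the same order for Obp57c and Obp57a, lowest in library 1. Obp56a stood at 125, 101 and 112 CPM, highest in library 1. Obp18a stood at 33.3, 32.3 and 35.6 CPM, nearly level over the libraries.

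Among genes also known from the male reproductive tract, Obp56g, which is needed to form the mating plug and is also found in taste organs, stood at 42.2, 55.7 and 52.6 CPM. Obp56e stood at 2.83, 3.50 and 3.28 CPM. Both were lowest in library 1 and neither was called. Obp56f and Obp56i had at most 2 counts in a library, and Obp22a had none. Obp51a had 35, 2 and 24 counts, or 0.973, 0.0394 and 0.456 CPM, so library 2 stood apart on the low side. The testis gene dj had the same order, with 23, 1 and 19 counts. The other listed testis genes did not: twe had 53, 81 and 72 counts, can 5, 10 and 7, bam 5, 2 and 2, and aly 0, 0 and 3. The listed accessory gland genes had at most 4 counts in a library. The part of reproductive tract RNA in the Obp51a difference was not tested. Obp51a did not enter the test because of the filter on low counts. Its RefSeq locus overlaps hbs, and reads of overlapping genes may have been counted for either or left out as ambiguous.

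In RefSeq gene order, 26 genes of the family, Os-E included, lie in 8 runs with no other annotated gene between them, and 3 of these runs hold a gene at 100 CPM or more. In 2 of the 3, adjacent genes lay on either side of both 100 and 1 CPM. In the run Obp19a, Obp19b, Obp19c and Pbprp2, means were 0.342, 174, 0.386 and 314 CPM. In the run Obp56a, Obp56b, Obp56c and Obp56d, they were 113, 0.0158, 0.111 and 831 CPM. Obp50b and Obp50c, both without a count, have the same RefSeq locus, so reads there may have been left out as ambiguous. Whether this accounts for their counts of 0 was not tested, as the annotation behind the counts is unknown. Obp50d, Obp58c, Obp46a, Obp85a and Obp93a, all Plus-C genes, were also without a count. The RefSeq loci of Obp85a and Obp93a overlap another gene, CG45263 and CG5793, so the same limit holds for them. Of the 13 Plus-C genes, 7 had no count, beside 11.5% of all genes. Those detected were 2, beside 61.1% of all genes. They were Obp49a and Obp50a, the latter at 2.06, 2.42 and 1.92 CPM.

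**Figure D3:**
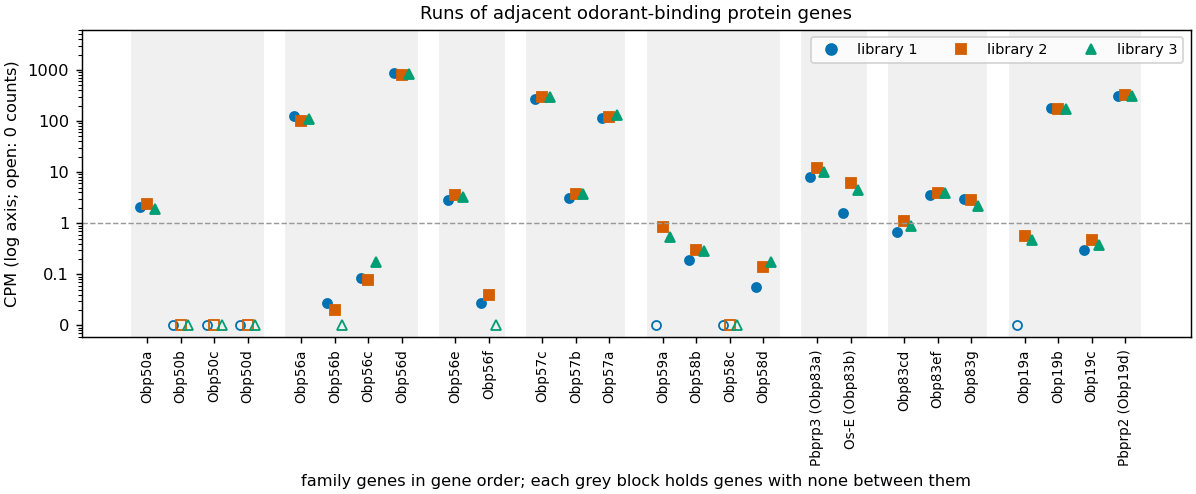
CPM (log axis, with counts of 0 drawn as open markers at the bottom) of the 26 family genes in the 8 runs of adjacent genes, in RefSeq order and not divided by length; grey blocks mark runs and the dashed line marks 1 CPM. In the runs of Obp56a to Obp56d and of Obp19a to Pbprp2, genes above 100 CPM alternate with or flank genes below 1 CPM in all 3 libraries.

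The double-domain genes were low, with Obp83ef at 3.58, 3.86 and 3.87 CPM and Obp83cd at 0.667, 1.08 and 0.873 CPM. Their RefSeq loci overlap, which makes both values uncertain. Obp83g, the next gene in order, stood at 3.03, 2.87 and 2.15 CPM. In all, 16 members overlap another RefSeq gene, among them Obp44a, Obp99c, Obp59a, Pbprp4, Pbprp1 and Obp57d. The sources used here do not say whether counting took the read strand into account.

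The 9 genes on the list of antennal genes, Os-E among them, had values of 11.9 CPM or less in every library, apart from Pbprp2. Obp56d, found in olfactory as well as taste sensilla, is not on that list and stood at 869, 782 and 843 CPM. After Pbprp2, the most counted gene of the list was Pbprp3 (Obp83a), made in sensilla of the antenna, at 8.17, 11.9 and 10.2 CPM. Pheromone detection in males and females depends on lush, which binds the male pheromone cis-vaccenyl acetate, and it stood at 6.09, 6.93 and 5.54 CPM. Pbprp5 (Obp28a), made in basiconic sensilla, stood at 3.08, 4.82 and 4.75 CPM. All 3 were highest in library 2, and none was called. Pbprp1 (Obp69a), which is linked to social responses to the same pheromone, had 10, 39 and 37 counts, or 0.278, 0.768 and 0.702 CPM, and was not called either (edgeR goodness-of-fit test, adjusted p = 0.952).

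A further 3 antennal genes were at 0 in library 1 and counted in both other libraries. Obp19a had 0, 28 and 25 counts, Pbprp4 (Obp84a) 0, 31 and 23 counts, and Obp59a, which is needed for humidity responses, 0, 42 and 28 counts. The RefSeq locus of Pbprp4 overlaps Dtwd2 and that of Obp59a overlaps CG30259, so reads of either may have been miscounted or left out. The exact two-sided 95% limit of a count of 0 in library 1 was 0.103 CPM, below the lower limits in library 2, which were 0.366 CPM for Obp19a, 0.415 CPM for Pbprp4 and 0.596 CPM for Obp59a. Set lower limit against upper limit, library 2 was at least 3.57-fold higher for Obp19a, 4.05-fold for Pbprp4 and 5.81-fold for Obp59a. These limits cover counting error only. They take no account of the genes having been grouped by their count of 0 in library 1. Over all genes with a count, 308, or 2.22%, were at 0 in library 1 and counted in both others, beside 7.14% of the 42 counted members.

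Os-E (Obp83b), the neighbour and close relative of Pbprp3 that lies outside the symbol rule, had the same order of libraries. It had 57, 313 and 235 counts, or 1.58, 6.16 and 4.46 CPM, and was called (edgeR goodness-of-fit test, adjusted p = 0.00166). Its ratio of library 2 to library 1 was 3.89, with an exact 95% counting interval of 2.93 to 5.25. The same ratio for Pbprp3 was 1.46, with an interval of 1.27 to 1.68, so these adjacent genes did not differ between the libraries by the same factor within counting error.

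**Figure D4:**
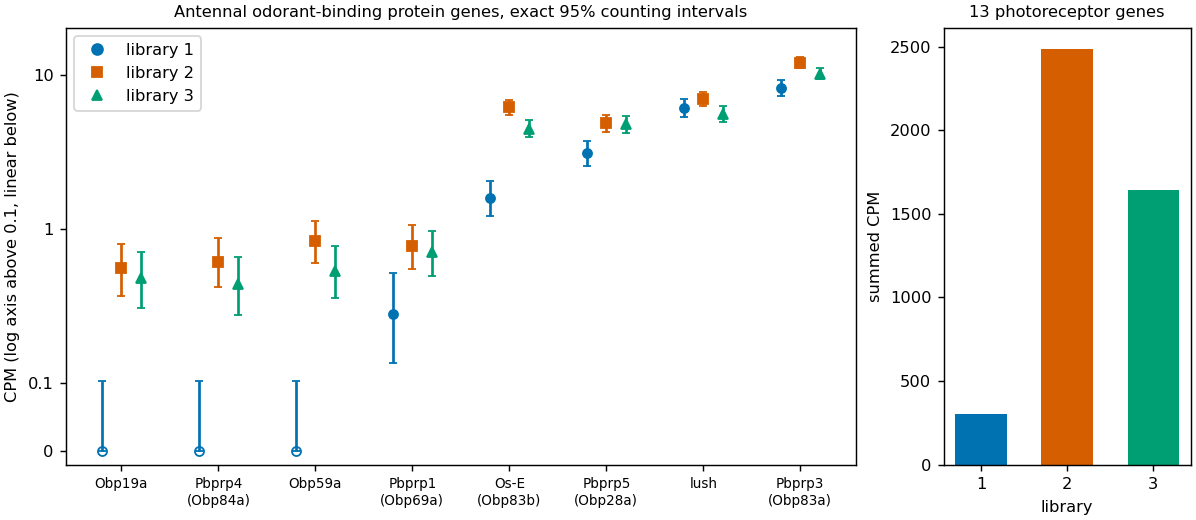
Left, CPM of 7 antennal members and Os-E in each library (log axis above 0.1, linear below), with exact 95% intervals for counting error and open markers for counts of 0; right, summed CPM of the 13 photoreceptor genes in the same libraries. Obp19a, Pbprp4 and Obp59a are at 0 in library 1, and Os-E is at 1.58 CPM in library 1 and 6.16 CPM in library 2, where the photoreceptor sums are 302 and 2486 CPM.

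The receptors that work with these carriers were sparse. Orco, the co-receptor of most olfactory neurons and so a defining marker of them, had 3, 102 and 45 counts, or 0.0834, 2.01 and 0.854 CPM. Its library 2 to library 1 ratio was 24.1, with an exact 95% counting interval of 8.01 to 119. Or67d, the receptor that responds to the ligand of lush, had 2, 9 and 5 counts. Of 19 measured genes of olfactory transduction, 6 were detected and none of the 8 tested was called; the highest was the ammonium transporter relative Rh50, at 128 ± 2.67 CPM. Of 11 taste receptor genes, 5 were detected and none of the 8 tested was called, with ppk23 highest at 17.7 ± 1.19 CPM. The part that antennal or other head RNA played in the library differences of the odorant-binding protein genes was not tested. The photoreceptor sum, Orco, Os-E, Obp19a, Pbprp4 and Obp59a all had the order library 2, library 3, library 1 from high to low. Pbprp1, Pbprp3 and Pbprp5 had it too, whereas lush and Pbprp2 were lowest in library 3. The order was not particular to eye and antennal genes. The neuron and glia sum had it, at 1566, 2156 and 1944 CPM. So did the sums of blood cell genes (371, 440 and 419 CPM) and of epidermis and trachea genes (235, 317 and 283 CPM). The muscle sum had it as well, although 8 of the 15 muscle genes were highest in library 1. The gut and fat body sums did not have it. The order of Orco was not that of the sum of its list of olfactory transduction genes. Of the 6 detected there, 3 were highest in library 1, 2 in library 2 and 1 in library 3. The list summed to 197, 213 and 214 CPM in libraries 1, 2 and 3, of which Rh50 held 131, 126 and 127 CPM. None of the listed Or genes was among the 6 detected. Each of these Or genes was highest in library 2 or 3, with few counts. Or59b, for example, had 9, 19 and 14 counts and Or92a 0, 7 and 10. Of the listed Gr genes, Gr21a had 0, 6 and 4 counts and Gr63a 4, 3 and 5.

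Across the whole table, 28 of the 51 members had enough counts to be tested, and 1 of these, or 3.57%, was called as differing between libraries, beside 2.05% of all genes tested (216 of 10522). The member called was Obp56h, which affects the male's cuticular hydrocarbons and the time to mating. It had 13, 82 and 80 counts, or 0.361, 1.61 and 1.52 CPM (edgeR goodness-of-fit test, adjusted p = 0.0183). Library 1 was the low one, while libraries 2 and 3 were within counting error of each other. The ratio of library 2 to library 1 was 4.47, with an exact 95% counting interval of 2.47 to 8.75. Without library 1 or without library 3 no member was called.

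The filter on low counts required enough counts in all 3 libraries, so a gene at 0 in library 1 could not be tested. With no filter, 42 members were tested and 4 were called, beside 1.89% of all genes (262 of 13879). These were Obp59a (edgeR goodness-of-fit test, adjusted p = 0.000517), Obp51a (0.00268), Pbprp4 (0.00495) and Obp19a (0.00657), whereas Obp56h missed the threshold (0.102). Orco was called in that fit as well (adjusted p = 2.6e-05). Of these 5 genes, Obp51a was highest in library 1 and the others in library 2.

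For most members the libraries lay close together, although a gene that missed the threshold is not shown to be equal between them. The gap between the highest and lowest library on the log2(CPM + 0.5) scale had a median of 0.27 over the 28 tested members and 0.22 over all genes tested. It ran from 0.05 for Obp19b to 1.30 for Obp56h. Of the 22 detected members, 8 were highest in library 1, 9 in library 2 and 5 in library 3, or 36.4, 40.9 and 22.7%, beside 43.7, 36.8 and 19.5% of all detected genes.

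**Figure D5:**
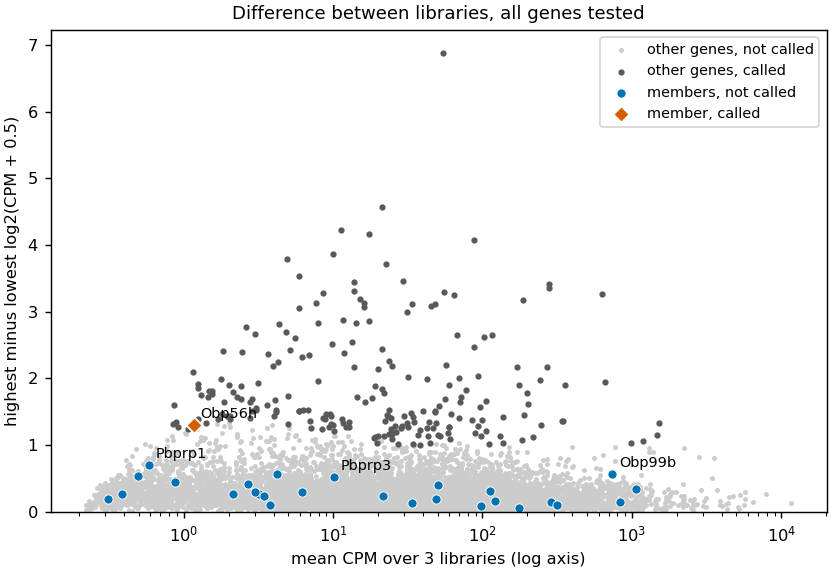
Highest minus lowest log2(CPM + 0.5) over the 3 libraries (vertical axis) against mean CPM (log axis) for the 10522 genes tested; grey points are other genes, dark where called, blue points are members not called and the orange diamond is the called member. Members run from 0.05 to 1.30 and Obp56h, at 1.30, is the highest of them.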

How the data were processed

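The authors deposited raw counts: each file pairs a gene symbol with a whole number, and totals differ between files. The tools CASAVA 1.7, BWA, HTSeq and STAR are listed per the submitters' processing notes, with no roles given. The notes also name mm9, a mouse build, while the rows carry fly symbols, so the fly build and annotation are unknown and coordinates are left out. Per the labels' protocols, libraries were made with a stranded TruSeq mRNA kit and sequenced as pairs of 100 base reads.

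From these counts, CPM was computed over the gene rows; 5 summary rows (no feature, ambiguous, low quality, not aligned, not unique) were left out, and gene rows held 78.0, 74.9 and 75.2% of all that was listed in libraries 1, 2 and 3. With 1 group, no contrast could be fitted. Whether a gene's spread over the libraries exceeded that of genes at a similar level was tested over all genes with edgeR 4.0.16 in R 4.3.3 (intercept-only fit, TMM factors, filterByExpr with a minimum count of 10, trended dispersion, chi-square goodness of fit on 2 degrees of freedom, Benjamini-Hochberg adjustment, threshold 0.05); the script was tested on simulated data. Intervals are exact Clopper-Pearson at 95% and cover counting error only. Alternatives used DESeq2 1.42.0 size factors, no filter, a common dispersion, other scalings and thresholds, and each library left out.

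All members with a mean of 1 CPM or more, those called and those of a list of antennal genes were named. Members and lists were chosen with earlier results of these data known. The 6 columns of samples that belong to another series were not used. Coding lengths had been planned for comparing genes, but lengths were not available. No sequences are shown, for the same reason.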

Additional observations from a re-analysis of the deposited data

How the results depend on the processing

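The number of variable members was 1 (Obp56h) with DESeq2 size factors and with a common dispersion as well. It was 4 with no filter on low counts, where Obp56h was not among them (adjusted p = 0.102 and unadjusted p = 0.00229, beside 0.0183 and 0.000326 with the filter, edgeR goodness-of-fit test; the cause was not tested), and it ranged from 0 to 1 when each library was left out, with fewer samples and 1 degree of freedom. With Os-E, added after the data had been examined, it was 2. Over all genes the count was 216, and 213, 262 and 244 with DESeq2 size factors, no filter and a common dispersion, and 108, 89 and 124 without libraries 1, 2 and 3. The family's share of 0.394% ranged from 0.378 to 0.408% with a library left out and was 0.421% without the 10 genes of highest mean CPM. The number of detected members, 22, ranged from 22 to 23 over the alternatives run. Leaving out those 10 genes raised all levels, as a smaller total must, and moved 8 of 27 named members by more than 1 SD; TMM scaling moved none. Zeros, and members under 1 CPM, are limited by depth.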

Other observations

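Other carrier proteins of chemosensory organs were counted too. Of 16 listed genes, 13 were detected, beside 61.1% of all genes, and the highest was PebIII at 2638 ± 96.7 CPM. Of the 14 tested, 2 were called, beside 2.05% of all genes tested. These were the lipid-binding protein genes Npc2d, at 35.2, 9.47 and 19.1 CPM in libraries 1, 2 and 3, and Npc2e, at 3.36, 0.472 and 1.50 CPM (edgeR goodness-of-fit test, adjusted p = 4.3e-07 and 2.7e-05). Library 1 was the high one and library 2 the low one for both, the reverse of Os-E and Orco and the same order as the sum of the gut markers, whose called gene LysX stood at 5.67, 0.472 and 2.89 CPM. The part of gut RNA in these values was not tested. The listed carrier a10, which did not enter the test because of the filter on low counts, went the other way. It had 3, 206 and 149 counts, or 0.0834, 4.06 and 2.83 CPM, the same order as Os-E and Orco.

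The CheA and CheB families, some of whose members are known from taste bristles of the legs, were singled out after their values were seen. All 8 CheA and all 12 CheB genes were detected, beside 61.1% of all genes. None was called, beside 2.05% of all genes tested. CheA75a stood at 181 ± 15.3 CPM, CheA7a at 127 ± 10.3 CPM and CheB42c at 61.3 ± 1.64 CPM. By contrast, 3 of 60 olfactory receptor genes, 4 of 63 gustatory receptor genes and 5 of 62 ionotropic receptor genes were detected.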
